A study of Homo sapiens with 4 samples.

Results

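The 8 genes described here are those of the urea cycle, NAGS, CPS1, OTC, ASS1, ASL, ARG1 and ARG2, together with the liver-type glutaminase GLS2. They were chosen by name, and each was found as 1 of the 59652 genes of the count table. The RNA came from Huh7 cells and from PLC cells (PLC/PRF/5), which are established hepatocellular carcinoma (HCC) cell lines, labelled as wild type. Each line was kept for 48 h in glucose-free DMEM with 10% fetal bovine serum and antibiotics, to which 5 mM glucose (low glucose) or 25 mM glucose (high glucose) was added. There were 4 libraries, 1 for each combination of line and glucose, and thus no replicates. The study asked which transcripts, above all lncRNAs, respond to glucose in HCC cells.

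The urea cycle turns ammonia, which is toxic, into urea, and the complete cycle runs in hepatocytes. NAGS makes N-acetylglutamate, without which CPS1 is inactive, and CPS1 joins ammonia and bicarbonate to carbamoyl phosphate inside the mitochondrion. OTC passes the carbamoyl group to ornithine, ASS1 and ASL then make arginine from citrulline and aspartate in the cytosol, and ARG1 splits arginine into urea and ornithine. ARG2 is the mitochondrial arginase, which is found in many tissues outside the liver, and GLS2 releases ammonia from glutamine in periportal hepatocytes. HCC often loses several of these enzymes, and cells without ASS1 or OTC depend on arginine from outside.

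Reads counted on genes came to between 16049686 (PLC cells, high glucose) and 30279716 (PLC cells, low glucose) per library. Levels are given as FPKM, that is, as reads scaled by the length of the gene and by the total of the library, where the length is that of all annotated exons together. Intervals cover 95% and counting error only, and with 1 library per condition no difference within a line has a replicate check or a test. A bulk library also gives an average over the culture, so that a change in the share of cells that express a gene and a change in RNA per cell cannot be told apart. Of 10 hepatocyte markers, all 10 exceeded 0.5 FPKM in Huh7 cells against 8 in PLC cells, where TTR and AHSG did not. Their summed level was 5967 and 6137 FPKM in Huh7 cells against 728 and 1609 FPKM in PLC cells, at low and high glucose, and ALB, the serum albumin gene, had 2017 and 2039 FPKM in Huh7 cells against 52.4 and 72.3 FPKM in PLC cells. Of 13 markers of other cell types, 10 were under 0.5 FPKM in each Huh7 library and 12 in each PLC library, with a summed level of 31.8 to 37.1 FPKM in Huh7 cells against 1.03 to 3.45 FPKM in PLC cells. The bile duct keratin KRT19 made up most of that sum in Huh7 cells, with 30.1 and 23.9 FPKM, while it had 1 read and 0 reads in PLC cells. The part of these marker differences in the differences between the lines described here was not tested.

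The promoters of ASS1, ARG1 and ARG2 are shown because the results turn on them: ASS1 and ARG1 passed the glucose thresholds in Huh7 cells, and the 2 arginases differed between the lines in opposite directions. For these genes RefSeq has a window at the start site of the reference (MANE) transcript. Each window runs 5′ to 3′ from 250 bases before the start site to 50 bases into the transcript, on the plus strand of GRCh38.p14. They lie at chr9:130444711-130445010 for ASS1, chr6:131572976-131573275 for ARG1 and chr14:67619670-67619969 for ARG2. Capitals mark matches to the letters searched on both strands, which were GGGCGG for the GC box, CACGTG for the E-box, TATAAA for the TATA box, TGACGTCA for the cAMP response element (CRE) and the 5 letters that name the CCAAT box.
ASS1: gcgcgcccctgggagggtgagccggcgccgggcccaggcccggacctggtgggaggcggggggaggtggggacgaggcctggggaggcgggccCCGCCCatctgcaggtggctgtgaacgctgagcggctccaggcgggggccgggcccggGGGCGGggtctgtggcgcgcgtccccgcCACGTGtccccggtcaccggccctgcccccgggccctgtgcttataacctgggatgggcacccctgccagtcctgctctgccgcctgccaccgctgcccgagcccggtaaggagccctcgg
ARG1: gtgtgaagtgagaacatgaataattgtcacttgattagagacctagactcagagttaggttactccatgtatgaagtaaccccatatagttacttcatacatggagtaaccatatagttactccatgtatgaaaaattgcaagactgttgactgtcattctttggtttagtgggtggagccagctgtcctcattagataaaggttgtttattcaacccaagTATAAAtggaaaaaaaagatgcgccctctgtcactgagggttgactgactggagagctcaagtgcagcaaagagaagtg
ARG2: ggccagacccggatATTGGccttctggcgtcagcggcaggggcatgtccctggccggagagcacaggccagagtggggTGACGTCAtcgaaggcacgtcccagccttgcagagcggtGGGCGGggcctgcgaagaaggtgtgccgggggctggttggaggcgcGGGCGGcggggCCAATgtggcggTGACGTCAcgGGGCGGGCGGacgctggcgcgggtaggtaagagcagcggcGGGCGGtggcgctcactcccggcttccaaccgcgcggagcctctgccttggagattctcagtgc

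Positions are counted from the start site as 1, with no position 0, and give the first base of a match. The ASS1 window is 78.3% G and C and holds GC boxes at -157 and -99 and an E-box at -71, while an E-box occurs in 7.26% of the 35116 promoter windows of the RefSeq table. The ARG1 window is 40.0% G and C and has a TATA box at -29 as its only match, against 11.5% of all windows with these letters. The ARG2 window is 71.0% G and C and holds 2 CREs, at -172 and -64, a motif that 1.85% of all windows contain. It also has 5 GC boxes, of which those at -54 and -50 overlap, and 2 CCAAT boxes, and these motifs occur in 45.0% and 34.6% of all windows. None of the 11 windows of the 8 genes held the letters searched for C/EBP (TTGCNNAA, in 10.5% of all windows), for the C/EBP-ATF response element (TGATGNAA, 3.62%) or for HNF4 (CAAAGTCCA, 0.384%). These matches describe the letters of 1 window per start site and are not shown to be binding sites. The 3 windows of CPS1 start between 36756 and 78914 bases away from the start site of its reference transcript, so none is shown.

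The level of the 8 genes ranged over more than 4 orders of magnitude on the FPKM scale. In PLC cells CPS1 and ASS1 stood far above the other 6 genes, at 334 to 474 FPKM, and no other member reached 12 FPKM there. In Huh7 cells no member reached 14 FPKM, and the order was ASS1, ASL, ARG1, ARG2, NAGS and CPS1 at low glucose and ARG1, ASL, NAGS, ARG2, ASS1 and CPS1 at high glucose. The intervals of ARG2 and NAGS overlapped at low glucose, as did those of NAGS, ARG2 and ASS1 at high glucose, so these neighbours did not differ beyond counting error. Orders and ratios between genes also depend on the exon length used. In Huh7 cells at low glucose ASL had 918 reads over 6031 bases, against 720 reads over 3018 bases for ASS1. In PLC cells the order was ASS1, CPS1, ARG2, ASL, NAGS and ARG1 at low glucose and CPS1, ASS1, ARG2, ASL, ARG1 and NAGS at high glucose, where the intervals of ARG1 and NAGS overlapped. OTC and GLS2 stayed under 0.5 FPKM in all 4 libraries. The summed level of the 8 genes was 30.4 and 32.2 FPKM in Huh7 cells against 883 and 711 FPKM in PLC cells, at low and high glucose.

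**Figure D1:**
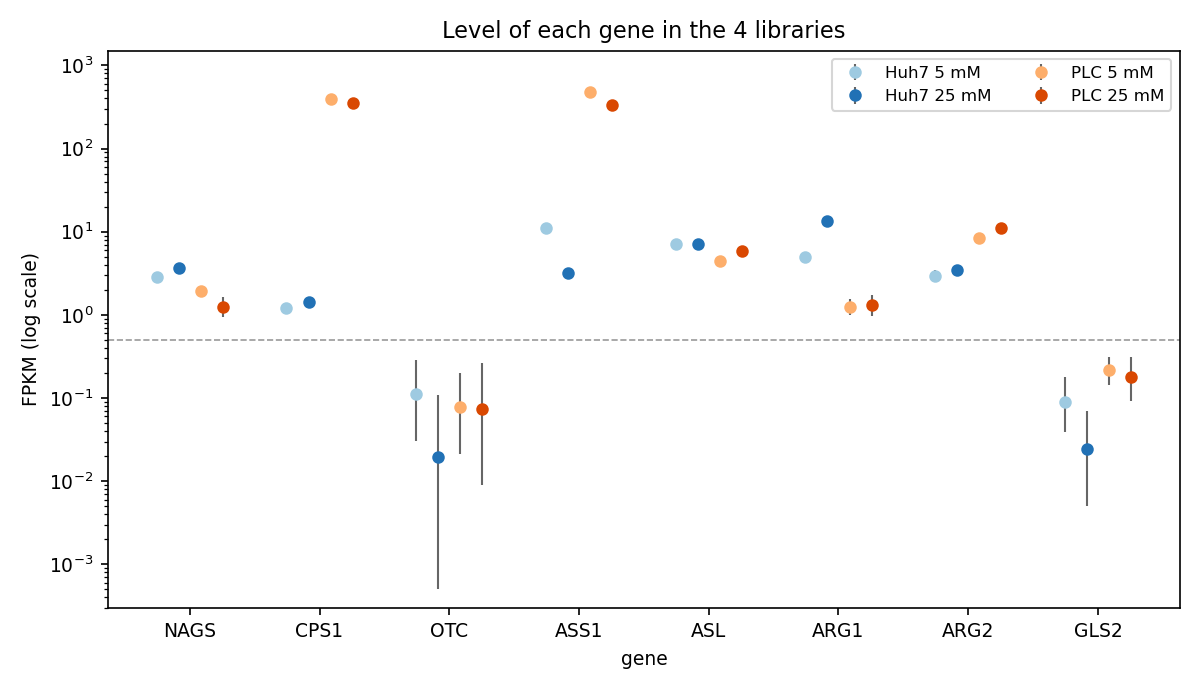
FPKM of each gene in the 4 libraries on a log axis, with 95% Poisson intervals of the counts as error bars and a dashed line at 0.5 FPKM. CPS1 and ASS1 lie above 300 FPKM in both PLC libraries and below 12 FPKM in both Huh7 libraries, while OTC and GLS2 lie under the dashed line in all 4 libraries.

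CPS1, the enzyme that commits ammonia to the cycle, lies on chromosome 2 from 210477682 to 210679107 on the plus strand of hg38. It had 288 and 480 reads in Huh7 cells at low and high glucose (1.22 and 1.45 FPKM) and 130762 and 63241 reads in PLC cells (392 and 358 FPKM). Its reads made up 0.432% and 0.394% of the 2 PLC libraries, and it ranked 24 and 35 by FPKM among 19161 protein-coding genes there, against 10105 and 9852 in Huh7 cells. The lines did not overlap at either concentration. PLC cells had 321 times the FPKM of Huh7 cells at low glucose (interval 286 to 361) and 247 times at high glucose (226 to 271). In the fit over all 4 libraries the difference was a log2 fold change of 8.14 (SE 0.24; adjusted p = 5.88e-10, edgeR's quasi-likelihood test with Benjamini-Hochberg adjustment), rank 246 of 13922 protein-coding genes ordered from PLC cells higher to Huh7 cells higher. CPS1-IT1, an RNA annotated inside CPS1 on the same strand with 0 exon bases in common, had 0 and 4 reads in Huh7 cells against 696 and 653 reads in PLC cells.

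NAGS, whose product switches CPS1 on, lies on chromosome 17 from 44004622 to 44009068 on the plus strand. It had 167 and 307 reads in Huh7 cells (2.84 and 3.71 FPKM) and 160 and 55 reads in PLC cells (1.92 and 1.25 FPKM). Both PLC values were under both Huh7 values, so that the activating enzyme was lower in the line in which CPS1 was higher. The log2 fold change of PLC cells over Huh7 cells was -1.05 (SE 0.38; adjusted p = 0.0406, edgeR's quasi-likelihood test), and the PLC to Huh7 ratio was 0.676 (0.541 to 0.845) at low and 0.336 (0.247 to 0.449) at high glucose. This call was lost with DESeq2 (adjusted p = 0.203) and without glucose as a term (adjusted p = 0.0743), and over 7 settings the adjusted p ran from 0.0215 to 0.203.

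OTC, the enzyme that makes citrulline, lies on chromosome X from 38352586 to 38421446 on the plus strand. It had 4 and 1 reads in Huh7 cells against 4 and 2 reads in PLC cells, or 0.111, 0.0197, 0.0785 and 0.0740 FPKM. The limit of 3 reads stands for 0.0589 to 0.111 FPKM of OTC in these libraries, and the gene did not pass the filter on low counts, so no difference between the lines was detectable at this depth. In PLC cells CPS1 at low glucose thus had 4993 times the FPKM of OTC, the enzyme that uses its product, with an interval of 1950 to 18327.

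ASS1, which joins citrulline and aspartate, lies on chromosome 9 from 130444961 to 130501274 on the plus strand. It had 720 and 289 reads in Huh7 cells at low and high glucose (11.2 and 3.18 FPKM) and 43358 and 16175 reads in PLC cells (474 and 334 FPKM). By FPKM it ranked 3826 and 8109 of 19161 protein-coding genes in Huh7 cells against 16 and 42 in PLC cells. PLC cells had 42.5 times the level of Huh7 cells at low glucose (39.5 to 45.8) and 105 times at high glucose (93.4 to 118). The fitted log2 fold change of PLC over Huh7 cells was 6.06 (SE 0.31; adjusted p = 1.05e-08, edgeR's quasi-likelihood test). The table also lists 11 ASS1 pseudogenes, whose reads summed to 19, 24, 16 and 19 in Huh7 cells at low and high glucose and PLC cells at low and high glucose. That sum is 2.64% and 8.30% of the ASS1 count in Huh7 cells and at most 0.117% in PLC cells, and how reads that fit a pseudogene equally well were counted is not given in the sources used here.

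ASL, which releases arginine and fumarate, lies on chromosome 7 from 66075800 to 66094697 on the plus strand. It had 918 and 1283 reads in Huh7 cells (7.12 and 7.07 FPKM) and 807 and 563 reads in PLC cells (4.42 and 5.82 FPKM). The PLC values were lower at both concentrations, with PLC to Huh7 ratios of 0.621 (0.564 to 0.683) and 0.823 (0.744 to 0.909). The fitted log2 difference was the smallest of the 7 genes tested, -0.48 (SE 0.25), and did not pass the test (adjusted p = 0.143, edgeR's quasi-likelihood test). As a result the ratio of ASS1 to ASL, the 2 enzymes that act in sequence, was 1.57 and 0.450 in Huh7 cells against 107 and 57.4 in PLC cells, at low and high glucose.

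The 2 arginases differed between the lines in opposite directions. ARG1, the cytosolic arginase of the liver cycle, lies on chromosome 6 from 131470832 to 131584332 on the plus strand and had 233 and 889 reads in Huh7 cells (4.91 and 13.3 FPKM) and 83 and 47 reads in PLC cells (1.24 and 1.32 FPKM). ARG2, the mitochondrial arginase, lies on chromosome 14 from 67619920 to 67651708 on the plus strand and had 145 and 236 reads in Huh7 cells (2.97 and 3.43 FPKM) and 587 and 409 reads in PLC cells (8.49 and 11.2 FPKM). For neither gene did the values of the lines overlap, with ARG1 lower and ARG2 higher in PLC cells. The PLC to Huh7 ratio of ARG1 was 0.251 (0.193 to 0.324) at low and 0.0991 (0.0723 to 0.133) at high glucose, with a fitted log2 fold change of -2.64 (SE 0.40; adjusted p = 0.000137, edgeR's quasi-likelihood test). For ARG2 the ratios were 2.86 (2.38 to 3.45) and 3.25 (2.76 to 3.83), with a fitted log2 fold change of 1.61 (SE 0.30; adjusted p = 0.000757, same test). The ratio of ARG1 to ARG2 was therefore 1.65 (1.34 to 2.05) and 3.88 (3.36 to 4.49) in Huh7 cells against 0.146 (0.114 to 0.183) and 0.118 (0.0855 to 0.160) in PLC cells. VTI1B shares 39.6% of the exon bases of ARG2 on the opposite strand, and whether the counting used strand is not given in the sources used here.

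GLS2, the liver-type glutaminase, lies on chromosome 12 from 56470944 to 56488414 on the minus strand. It had 8 and 3 reads in Huh7 cells against 27 and 12 reads in PLC cells, or 0.0904, 0.0241, 0.215 and 0.181 FPKM. The PLC values were above the Huh7 values at both concentrations, but the difference did not pass the test (log2 fold change 1.93, SE 0.91; adjusted p = 0.106, edgeR's quasi-likelihood test). SPRYD4, on the opposite strand, shares 77.1% of the exon bases of GLS2 and had 281 to 532 reads per library. Whether reads in the shared bases were counted for GLS2 is not known, since the strand setting is not given in the sources used here. The level of GLS2 is uncertain for this reason too.

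Counted over the group, 5 of the 7 genes that could be tested differed between the lines, against 42.9% of all 23217 genes tested. CPS1, ASS1 and ARG2 were higher in PLC cells, ARG1 and NAGS were higher in Huh7 cells, and ASL and GLS2 did not pass. The median log2 difference over the 6 genes above 0.5 FPKM in either line was 0.47 at low and 0.70 at high glucose, against -0.05 and 0.00 over all genes. These p-values rest on 1 residual degree of freedom per gene, to which edgeR adds a prior of 12.0 from the spread over all genes tested. They treat the 2 libraries of a line, which differ in glucose, as repeats of the line. The residual of a gene is thus the difference of its glucose change between the lines. These p-values therefore do not measure the spread among cultures.

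**Figure D2:**
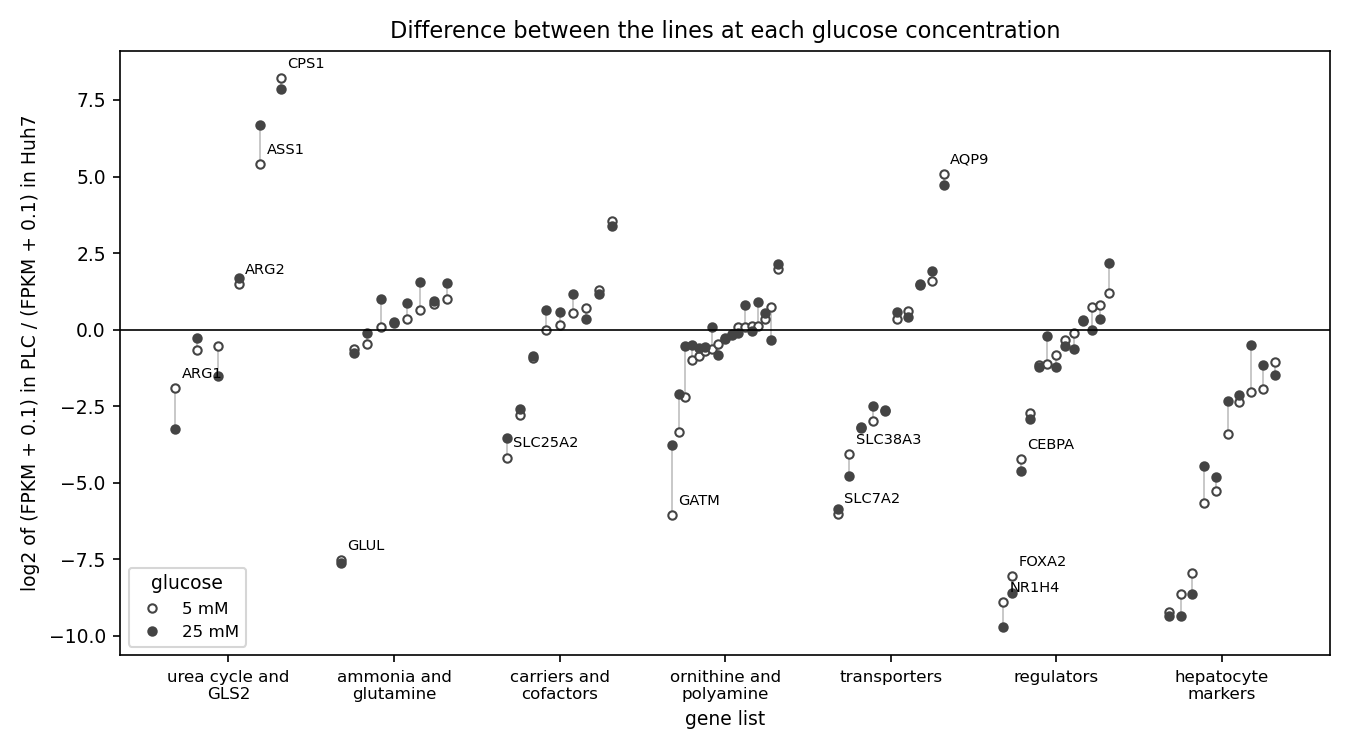
Log2 ratio of PLC to Huh7 cells, with 0.1 added to each FPKM, at low glucose (open circles) and high glucose (filled circles), for genes over 0.5 FPKM in at least 1 library, by gene list. CPS1 and ASS1 are the highest points of all 7 lists at both concentrations, GLUL lies at the bottom of its list, and a grey line joins the 2 values of a gene.

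Pairs of related enzymes were also compared within each library. CAD, the cytosolic enzyme whose carbamoyl phosphate goes to pyrimidines, was 12.3 and 11.5 FPKM in Huh7 cells against 22.1 and 22.2 FPKM in PLC cells. The ratio of CPS1 to CAD was 0.0995 (0.0877 to 0.113) and 0.126 (0.114 to 0.138) in Huh7 cells against 17.7 (17.2 to 18.2) and 16.1 (15.6 to 16.8) in PLC cells. Within each Huh7 library CAD thus had a higher level than CPS1, and within each PLC library a lower one. Between the lines CAD itself was higher in PLC cells (log2 fold change 0.90, SE 0.21; adjusted p = 0.00396, edgeR's quasi-likelihood test). GLUL, the glutamine synthetase that fixes ammonia in perivenous hepatocytes, had 8082 and 10386 reads in Huh7 cells against 24 and 8 reads in PLC cells.

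**Figure D3:**
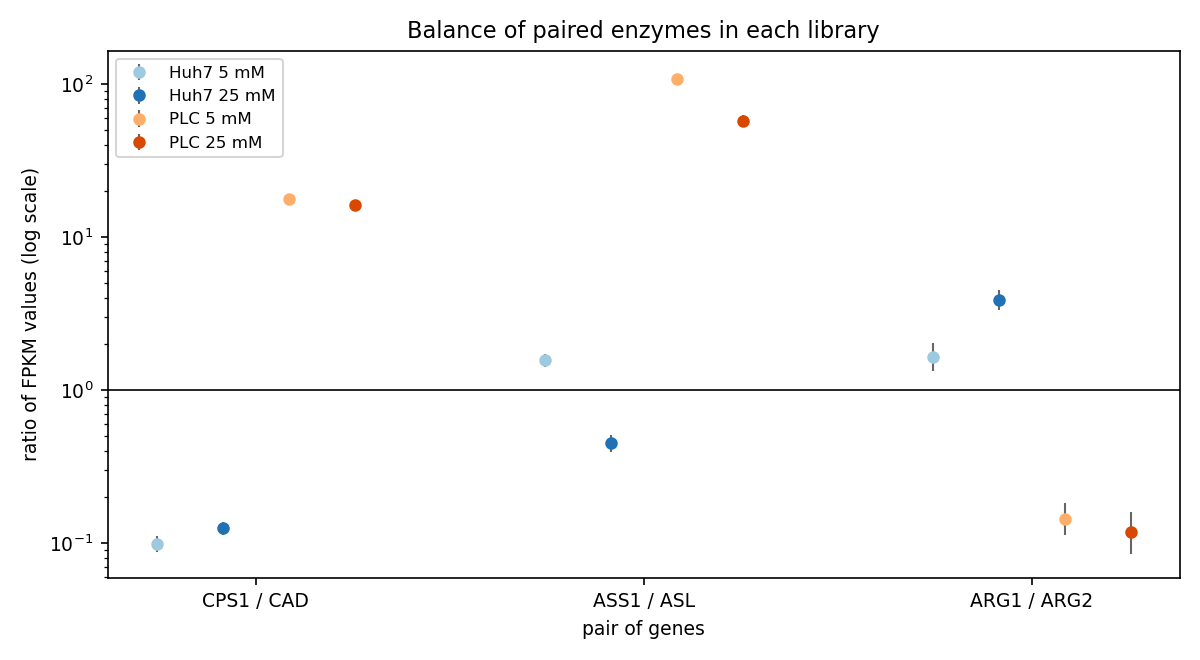
Ratio of FPKM values of 3 pairs of enzymes in each library, on a log axis with 95% counting intervals, and a line at 1. CPS1 to CAD and ASS1 to ASL are higher in both PLC libraries than in both Huh7 libraries, and ARG1 to ARG2 is above 1 in Huh7 cells and below 1 in PLC cells.

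For the response to glucose, the thresholds of the study were used: FPKM over 0.5 in at least 1 library of the line and a ratio of high to low glucose over 1.5 or under 0.67, here with 0.1 added to each FPKM. In Huh7 cells 2 of the 6 genes over 0.5 FPKM passed, ARG1 higher and ASS1 lower, while 27.8% of all genes over 0.5 FPKM passed. In PLC cells 1 of 6 passed, NAGS lower, while 43.3% of all genes over 0.5 FPKM passed. With 6 genes, neither share is a result about the group. In PLC cells TMM scaling moved all log2 ratios without the added 0.1 by -0.12, and size factors as in DESeq2 moved them by -0.13. Ratios with 0.1 added moved less for genes near the floor. With the DESeq2 size factors the share of calls that were higher went from 60.7% to 50.5% of all calls.

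ASS1 had the lower value at high glucose in both lines. Without the added 0.1, its ratio of high to low glucose was 0.285 (0.248 to 0.327) in Huh7 cells against 0.704 (0.691 to 0.717) in PLC cells. The PLC value with 0.1 added, 0.704, did not pass the threshold of 0.67, and with TMM scaling it was 0.647 and passed. For a change shared by both lines, ASS1 had a log2 fold change of -1.22 (SE 0.26; unadjusted p = 0.000443, adjusted p = 0.0770, edgeR's quasi-likelihood test) and did not pass. The alternatives gave adjusted p-values for ASS1 from 9.37e-06 to 0.99996 (without the line as a term), and it passed with DESeq2 (0.0207) and without a filter on low counts (9.37e-06).

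ARG1 was past the upper threshold in Huh7 cells, where its ratio was 2.71 (2.34 to 3.15), while it was 1.07 (0.731 to 1.55) in PLC cells and 0.984 there with TMM scaling and 0.1 added. Its shared log2 fold change was 0.76 (SE 0.38; adjusted p = 0.655, edgeR's quasi-likelihood test). ARG1 went from rank 6750 to rank 3235 of 19161 protein-coding genes in Huh7 cells. ARG2, in contrast, had ratios of 1.16 (0.936 to 1.43) and 1.31 (1.16 to 1.49), both inside the thresholds.

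CPS1 and NAGS had ratios on opposite sides of 1 in the 2 lines. For CPS1 they were 1.18 (1.02 to 1.38) in Huh7 cells against 0.912 (0.904 to 0.921) in PLC cells, both inside the thresholds, and with TMM scaling the interval in Huh7 cells was 0.994 to 1.34 and included 1. For NAGS they were 1.31 (1.08 to 1.59) in Huh7 cells against 0.649 (0.468 to 0.886) in PLC cells. The NAGS value in PLC cells, 0.666 with 0.1 added, passed the threshold of 0.67 by a narrow margin and rests on 160 and 55 reads. CPS1-IT1 went the other way from CPS1 in PLC cells, with a ratio of 1.76 with 0.1 added.

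ASL had a ratio of 0.993 (0.912 to 1.08) in Huh7 cells against 1.32 (1.18 to 1.47) in PLC cells, and neither passed. GLS2 and OTC had too few reads for a ratio to be read, with intervals of 0.0455 to 1.11 and 0.00361 to 1.80 in Huh7 cells and of 0.387 to 1.71 and 0.0853 to 6.58 in PLC cells. No member passed the test for a change shared by both lines (0 of 7), while 0.379% of all 23217 genes did. At an unadjusted p under 0.05 the count was 1 of 7 members, which was ASS1, against 1975 of all 23217 genes. With DESeq2 it was 1 of 6 members, again ASS1, against 197 of all 12448 genes tested. The median log2 ratio of the members over 0.5 FPKM was 0.22 in Huh7 cells against -0.02 in PLC cells, against 0.04 and 0.11 over all genes.

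**Figure D4:**
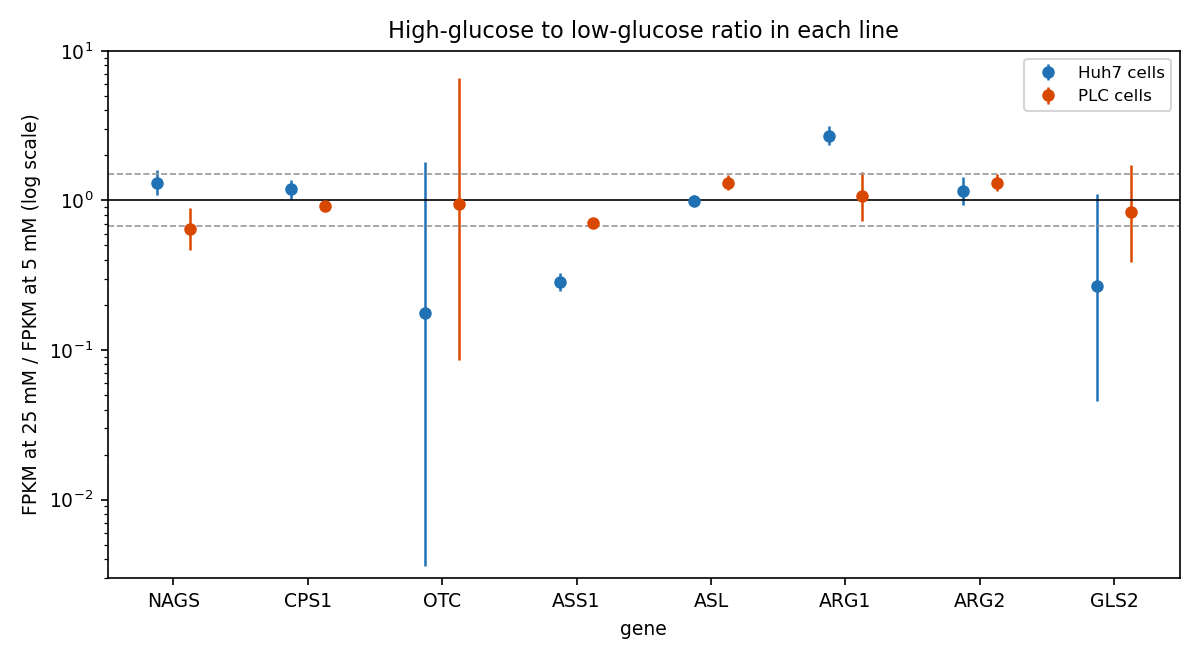
Ratio of FPKM at high glucose to that at low glucose for each gene in Huh7 cells (blue) and PLC cells (orange), on a log axis with exact 95% counting intervals, a line at 1 and dashed lines at 1.5 and 0.67. ARG1 (2.71) and ASS1 (0.285) lie outside the dashed lines in Huh7 cells and NAGS (0.649) in PLC cells. OTC (0.178) and GLS2 (0.266) also lie below 0.67 in Huh7 cells, but they are under the FPKM filter. The wide intervals belong to OTC and GLS2, which had at most 27 reads.

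The glucose ratios of the 2 lines were also set against each other for the 6 members that had 20 or more reads in each of the 4 libraries. The PLC ratio divided by the Huh7 ratio was 2.47 for ASS1 (2.15 to 2.83), whose ratio was under 1 in both lines, and 1.33 for ASL (1.16 to 1.52), whose ratio was near 1 in Huh7 cells and above it in PLC cells. It was below 1 for CPS1 at 0.771 (0.666 to 0.892), for NAGS at 0.497 (0.347 to 0.711) and for ARG1 at 0.394 (0.268 to 0.580). For ARG2 it was 1.14 (0.892 to 1.45). The interval excluded 1 for 5 of the 6, all but ARG2, and did so for 60.6% of all 13752 genes with as many reads. With 1 library per condition no residual is left for a test of this difference, and the intervals cover counting error only.

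The genes around the cycle are given by lists. Of all 23217 genes tested, 42.9% differed between the lines, 4897 higher in PLC cells and 5072 in Huh7 cells. The shared glucose test was passed by 0.379% of them. For lists of this size, a count near these shares is not a result about the list. Of 9 enzymes of ammonia and glutamine metabolism, 4 were higher in PLC cells, 2 in Huh7 cells and 3 did not pass. The largest of these differences was that of GLUL, with a log2 fold change of -9.07 (SE 0.33; adjusted p = 1.62e-09, edgeR's quasi-likelihood test). ASNS, the asparagine synthetase, and GPT2, a mitochondrial alanine aminotransferase, fell at high glucose in the test shared by both lines, and no enzyme of this list rose. ASNS had 240, 42, 540 and 81 reads in the 4 libraries, taken in the order Huh7 cells at low and high glucose and PLC cells at low and high glucose, and GPT2 had 1545, 772, 2816 and 763. Their log2 fold changes of high over low glucose were -2.47 for ASNS (adjusted p = 0.0158) and -1.31 for GPT2 (adjusted p = 0.0420) by the same test.

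Of 9 mitochondrial carriers and cofactor enzymes, 3 were higher in PLC cells, 3 in Huh7 cells and 3 did not pass. SLC25A15, the carrier that brings ornithine to OTC, had 17.5 and 19.8 FPKM in Huh7 cells against 9.22 and 10.9 FPKM in PLC cells. SLC25A13 (citrin), the liver aspartate carrier that supplies ASS1, had 45.8 and 32.8 FPKM against 51.0 and 48.5 FPKM and did not pass. SLC25A12, its homologue of other tissues, had 50 and 55 reads in Huh7 cells against 1027 and 399 in PLC cells, and its log2 fold change was 3.81 (SE 0.33; adjusted p = 9.80e-07, edgeR's quasi-likelihood test). No gene of this list passed the shared glucose test.

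Of 22 enzymes that use or make ornithine, proline, arginine and polyamines, 19 could be tested, and of these 1 was higher in PLC cells, 7 in Huh7 cells and 11 did not pass. The 1 that was higher in PLC cells was PYCR1, which makes proline, with 18.9 and 14.2 FPKM in Huh7 cells against 74.0 and 63.1 FPKM in PLC cells. GATM and GAMT, which turn arginine and glycine into creatine, were among the genes higher in Huh7 cells, with 18.1 and 11.5 FPKM of GATM against 0.171 and 0.740 FPKM. The nitric oxide synthases, which also use arginine, were under 0.5 FPKM in all 4 libraries. None of the 19 passed the shared glucose test.

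Of 14 transporters, 10 could be tested, and 4 of them were higher in PLC cells, 5 in Huh7 cells and 1 did not pass. The arginine transporters SLC7A1 and SLC7A2 differed in opposite directions. SLC7A1 had 33.0 and 10.7 FPKM in Huh7 cells against 98.8 and 40.6 FPKM in PLC cells, and SLC7A2, the form known from liver, had 49.8 and 43.7 FPKM against 0.673 and 0.654 FPKM. SLC7A1 was the 1 transporter that passed the shared glucose test, with a log2 fold change of -1.53 (SE 0.20; adjusted p = 0.00519, edgeR's quasi-likelihood test). AQP9, a channel for glycerol and urea, had 0 and 2 reads in Huh7 cells against 324 and 161 reads in PLC cells.

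Of 15 regulators, which are transcription factors, co-activators or receptors known to act on liver genes or that belong to the p53 and MYC families, 14 could be tested. PPARGC1A was higher in PLC cells, 8 were higher in Huh7 cells and 5 did not pass. HNF4A, a main regulator of hepatocyte genes, had 29.0 and 31.1 FPKM in Huh7 cells against 35.0 and 38.5 FPKM in PLC cells and did not pass. CEBPA had 68.5 and 75.9 FPKM in Huh7 cells against 3.54 and 3.02 FPKM in PLC cells, and FOXA2 and NR1H4 (FXR) had at least 2237 reads in each Huh7 library and at most 5 in each PLC library. CEBPB fell at high glucose in the shared test (log2 fold change -1.44; adjusted p = 0.0192, edgeR's quasi-likelihood test), with 64.7 and 29.3 FPKM in Huh7 cells against 113 and 37.7 FPKM in PLC cells. All 10 hepatocyte markers were higher in Huh7 cells, the line with the lower CPS1 and ASS1.

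For each of the 6 members with 20 or more reads per library, the protein-coding genes with the most similar profile were found among 10982 others, by the distance between centred log2(FPKM + 0.1) values over the 4 libraries. Nearest to CPS1 were CD109 (distance 0.553), SEMA3C and AKR1C3, and nearest to ASS1 were CXCL8 (0.841), SPP1 and FAR1. CD109 had 0.0956 and 0.150 FPKM in Huh7 cells against 43.9 and 36.0 FPKM in PLC cells, and CXCL8 had 3.87 and 2.05 FPKM against 178 and 101 FPKM. The nearest to ARG1 were NDRG1 (0.497), CPM and FSCN1, of which NDRG1 had 1.35 and 5.57 FPKM in Huh7 cells against 0.275 and 0.431 FPKM in PLC cells. The profiles nearest to ASL, ARG2 and NAGS were closer in distance, those of LCORL (0.0321), ANKRD36C (0.0338) and DRAM1 (0.0176), and these 3 members also varied less over the libraries. These distances describe 4 libraries of 2 lines, and they say nothing of shared function.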

How the data were processed

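RNA was extracted from Huh7 and PLC cells after 48 h in 5 mM or 25 mM glucose, depleted of rRNA and built into directional libraries, 1 per line and concentration. The authors deposited raw counts of reads per gene. HISAT2, featureCounts and hg38 are named in the submitters' processing notes, and versions, annotation release and strand setting are not given in the sources used here. The table has 59657 lines, and 5 broken lines of the ANK2 entry were left out. Groups were taken from the labels. The labels do not say whether libraries came from separate cultures.

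FPKM was calculated from the deposited count, the gene length in the table and the library total, which was 16049686 to 30279716 reads (Python 3.11.15, numpy 2.4.6, pandas 2.3.3, scipy 1.17.1). Intervals are exact Poisson or Clopper-Pearson 95% intervals, or Wald intervals on the log scale for ratios of ratios. They cover counting error only, and they are too narrow where reads are not independent molecules. edgeR 4.0.16 (quasi-likelihood, line and glucose as terms, TMM, filterByExpr, Benjamini-Hochberg over all genes, adjusted p under 0.05, R 4.3.3) tested the line difference and the shared glucose change, and its code was tested on simulated data. Standard errors were derived from the F statistic. Alternatives were pseudocounts, FPKM filters, thresholds, scaling, count filters, DESeq2 1.42.0, limma 3.58.1 and fits without a block. Members, lists and motifs were chosen with earlier results of these data known. The genes named are the members, genes of 7 further lists, genes and pseudogenes that overlap or copy a member, and the 3 nearest profiles per member. Coding genes were matched by symbol to GENCODE release 44, and promoters are RefSeq windows. A gene of the lists is not reported here.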

Additional observations from a re-analysis of the deposited data

Results flagged for a closer look

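CPS1 had a ratio of high to low glucose of 1.18 in Huh7 cells but of 0.912 in PLC cells. NAGS had ratios of 1.31 and 0.649 in the same lines. Each pair lies on opposite sides of 1 with counting intervals that do not include it when libraries are scaled by their totals. With TMM scaling the interval of CPS1 in Huh7 cells is 0.994 to 1.34 and includes 1. With 1 library per condition, this difference between lines was not tested.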

How the results depend on the processing

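No replicate could be left out, since each condition has 1 library. No paired analysis was possible because each group holds 1 library and the labels carry no replicate numbers, although the main test did compare the glucose concentrations within each line. In Huh7 cells the number of members past the thresholds was 2, and 4 without the FPKM filter, which added OTC and GLS2 at 8 reads or fewer. The shares of all genes considered were 27.8% and 18.8%. In PLC cells the number of members was 1, and 0 with a pseudocount of 1 or with ratios over 2 or under 0.5, and 2 with TMM scaling or DESeq2 size factors, which added ASS1. Over all genes considered, 43.3%, 27.5%, 24.2%, 43.0% and 43.1% passed in these 5 settings, in that order. For the shared glucose change the number of members was 0, and 1 (ASS1) without a filter on low counts and with DESeq2. The shares of all genes tested were 0.379%, 1.36% and 1.58%. The number that differ between the lines was 5, and 4 with DESeq2 and without glucose as a term, in which NAGS was lost. The shares of all genes tested were 42.9%, 28.7% and 38.0%. The PLC to Huh7 ratio of glucose ratios excluded 1 for 5 members under each scaling. The causes of these changes were not tested. Over all genes, the shared glucose calls numbered 88, and 526 without a filter, 27 with at least 10 counts in every library, 197 with DESeq2 and 0 without the cell line as a term (52 at an unadjusted p under 0.05). The line calls numbered 9969, and 6340 with at least 10 counts in every library. Of 171 single values of members under an alternative, 162 kept their direction and call and 7 changed a call, those of ASS1 and NAGS named above. Some of the 162 could not change a call. These are the line differences at a single glucose concentration, which have no test, and the ratios of OTC and GLS2, which lie under the FPKM filter. Other thresholds and FPKM filters are not among the 171. The remaining 2 of the 171 were the ARG1 ratio in PLC cells, which was 1.06 with 0.1 added and lay on the other side of 1, at 0.984 and 0.976, with TMM scaling and DESeq2 size factors. Low counts limit OTC and GLS2, which had at most 27 reads. For GLS2 the overlap with SPRYD4 and the unknown strand setting are a further limit.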
